A study of Homo sapiens with 4 samples.

Results

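The transmitter genes of sympathetic neurons were examined in a chromatin immunoprecipitation and sequencing study of SH-SY5Y, a human neuroblastoma cell line. They comprise 9 genes at 8 loci: TH, DDC and DBH for catecholamine synthesis, SLC18A2 and SLC6A2 for transport, CHGA and CHGB for the secretory granule, and CHAT with SLC18A3 for acetylcholine. A locus was the hg19 gene span, given in whole kb, with 20 kb on either side, and a region counted when it shared at least 1 bp with that window. The loci are defined by name and position, without a measured value in the rule, but the genes were proposed with earlier results of these data known. The 8 windows held 27 of the 32543 CHD5 peaks and 3 of the 257073 H3K27me3 regions in the deposited lists.

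Cells of all libraries received retinoic acid at 10 uM over 8 days, a treatment that gives SH-SY5Y cells neuron-like features. The 4 libraries, 1 per group, were a streptavidin pull-down from cells expressing FBio-CHD5, the same pull-down from cells expressing Fbio-Ctrl, an H3K27me3 precipitation from the FBio-CHD5 cells, and input DNA from the FBio-CHD5 cells. Region lists of the first and of the H3K27me3 library were used, and neither the control pull-down nor the input was analysed here, so the background of the beads at these loci was not measured. CHD5 was thus seen through a tagged protein added to the cells, and the labels name neither its promoter nor whether the cells were 1 clone. Each group is a single library, so no value has a replicate error and no difference was tested. The lists hold regions and a score per region from the authors' peak caller, with no counts, so the depth is unknown, and neither list reads the RNA by which a neuronal identity of the cells could be checked. Gene starts are known here to about 1 kb, and distances are given from the rounded span.

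Noradrenaline is made from tyrosine in successive steps. TH forms L-DOPA and limits the rate of the pathway, DDC removes the carboxyl group to give dopamine, and DBH hydroxylates dopamine inside the storage vesicle. SLC18A2, also called VMAT2, loads the vesicle with monoamines, SLC6A2, also called NET, takes noradrenaline back up from the synapse, and the chromogranins CHGA and CHGB are the bulk proteins of dense-core granules. CHAT makes acetylcholine, and SLC18A3, the vesicular acetylcholine transporter, lies within the CHAT gene and is read in the same direction, an arrangement known as the cholinergic gene locus. CHD5 is a chromodomain helicase that remodels nucleosomes and is expressed mainly in neural tissue. H3K27me3 is the histone mark written by Polycomb repressive complex 2 at silenced developmental genes.

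CHD5 was present at 7 of the 8 loci, and H3K27me3 at 1. The exception for CHD5 was SLC18A2, whose window held no region of either list. H3K27me3 was found only in the outer flank of the TH window, and TH was the 1 locus with both. The remaining 6 loci, DDC, DBH, SLC6A2, CHGA, CHGB and CHAT with SLC18A3, held CHD5 peaks and no H3K27me3 region. For comparison, the genome was laid out in 43562 windows of 71 kb, the median width of the 8 loci, whose windows ran from 48 to 148 kb. Of these windows 39.1% held a CHD5 peak, 32.6% held an H3K27me3 region, 31.5% held CHD5 alone, 7.56% held both and 35.9% held neither. The windows include gene-poor stretches, and other genes of hg19 were not analysed here, so the higher share of loci with CHD5 was not set against genes in general.

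**Figure D1:**
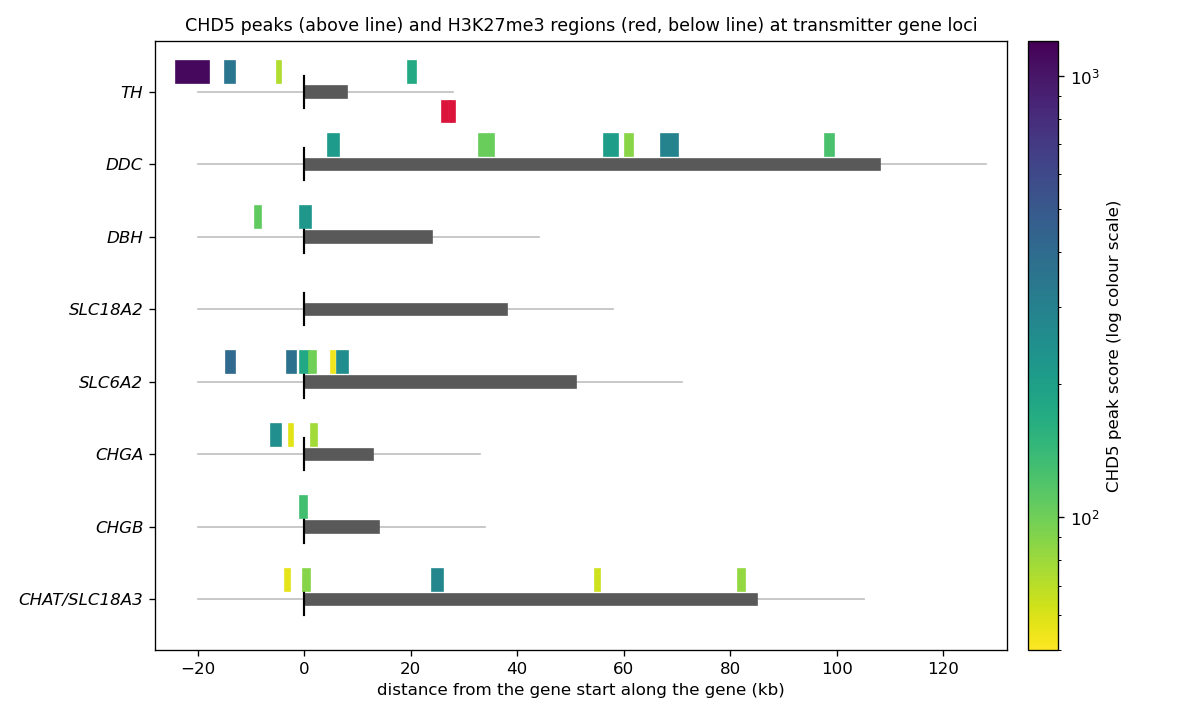
Positions of CHD5 peaks (coloured bars above each line, colour by score on a log scale) and H3K27me3 regions (red, below the line) at the 8 loci, by distance from the gene start in kb along the direction of the gene. The dark bar is the gene span, the thin line the 20 kb flanks and the vertical tick the gene start. SLC18A2 holds no region, and the H3K27me3 regions lie past the end of TH only.

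CHD5 peaks were denser at these loci than on average over the genome. The windows held 4.08 peaks per 100 kb, against 1.05 over the whole span of the chromosomes, a ratio of 3.88. The span of the chromosomes includes gene-poor stretches, and the density at genes in general was not analysed here. At 7 loci the density was above that of the gene's own chromosome. With flanks of 20 kb, TH had the highest density, with 8.33 peaks per 100 kb against 0.892 on chromosome 11, and SLC6A2 followed with 6.59 against 1.10 on chromosome 16. CHGA had 5.66, DDC 4.05, CHAT with SLC18A3 4.00 and DBH 3.13 peaks per 100 kb. CHGB, with 1.85 against 1.26 on chromosome 20, was nearest to its chromosome. This order depends on the flank. With 10 kb flanks CHGA came first at 9.09 peaks per 100 kb, SLC6A2 had 7.04 and TH 3.57, from 1 peak. The gene spans alone gave 7.84 at SLC6A2, from 4 peaks, and 0 at TH. They gave 7.69 at CHGA and 7.14 at CHGB, from 1 peak each. When windows as wide as each locus were laid along all chromosomes, 2.16% held as many peaks as TH and 2.13% as many as SLC6A2. The same share was 6.06% for CHGA, 6.16% for DDC (9.86% on its own chromosome), 7.18% for CHAT, 17.1% for DBH and 33.4% for CHGB. The count at CHGB was therefore common, and that at SLC6A2 was found in few windows. Some SLC6A2 peaks were separated from the next by only 723, 10 and 281 bp. The SLC6A2 count thus depends on how the peak caller divided them, and counts after joining close CHD5 peaks were not tested. The count of 4 at TH was as rare but lay wholly in the flanks, and its highest peak ran 4.01 kb past the edge of the window, so it rests on the 20 kb limit.

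**Figure D2:**
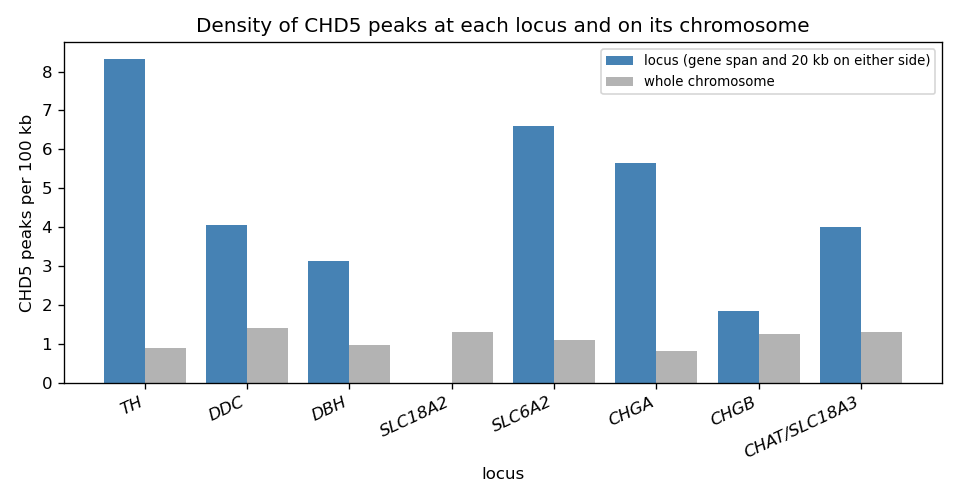
CHD5 peaks per 100 kb at each locus (blue, gene span with 20 kb flanks) and over its whole chromosome (grey), as bars from 0, each from 1 library. TH and SLC6A2 have the tallest blue bars, at 8.33 and 6.59, and SLC18A2 has none.

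The scores of these peaks were those of ordinary peaks of the list. Their median was 131, against 117 for all CHD5 peaks, and 15 of the 27 were at or above the median of the list. The score is the peak caller's own, has a smallest value of 50 in the list, and serves here to rank peaks within it. Scores at the loci ran from 54.2 to 1123. Of the 27 peaks, 9 were above the upper quartile of the list and 5 below the lower quartile, while 2 were in the top 10%. Their widths ran from 752 to 6111 bp with a median of 1688 bp, against 1647 bp for all CHD5 peaks. The loci therefore stood above the genome average in the number of peaks, while the median score and width of those peaks were near those of the list.

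**Figure D3:**
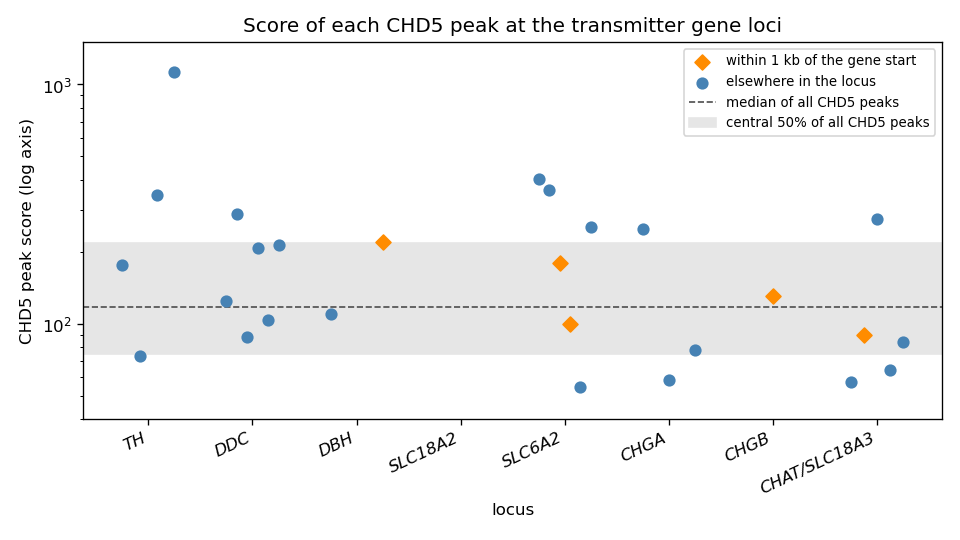
Score of every CHD5 peak at the 8 loci on a log axis, with peaks of a locus side by side in chromosome order. Diamonds are peaks within 1 kb of the gene start, and the dashed line and grey band give the median and central 50% of all CHD5 peaks. One peak at TH, at 1123, lies far above the band, and 4 of 5 peaks at CHAT lie below the median.

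A CHD5 peak lay within 1 kb of the gene start at 4 loci, namely DBH, SLC6A2, CHGB and CHAT, and 5 peaks did so in all. Starts are known only to about 1 kb, as wide as this limit, so both counts could shift. A second SLC6A2 peak was counted at 0.968 kb, and a CHGA peak at 1.26 kb was not. Positions within 1 kb of a CHD5 peak made up 4.01% of the genome. That share includes gene-poor stretches, and the share of gene starts in general near a CHD5 peak was not analysed here. These 5 peaks scored between 89.4 and 220, with a median of 131, and the 22 others had a median of 150. In 5 of the 7 loci with CHD5 the peak of highest score was not at the start, but TH, DDC and CHGA had no peak there. Among the 4 loci with a peak at the start, SLC6A2 and CHAT had a higher one elsewhere. The highest peak lay upstream at TH, SLC6A2 and CHGA and inside the gene at DDC and CHAT. At DBH and CHGB the peak at the start was the highest or the sole one. Of all 27 peaks, 4 covered the start, 13 lay inside the span, 9 upstream and 1 downstream. These counts were not set against the lengths of the spans and flanks or against other genes.

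Promoter sequences were taken from RefSeq, build GRCh38.p14, where the table held them: 9 entries for DBH, DDC, SLC18A2, CHGA, CHAT and SLC18A3. TH, SLC6A2 and CHGB had none. GRCh38 positions below serve to identify the sequence and are not comparable with the hg19 positions of the peaks. Each sequence is the 250 bases before a start, shown because a CHD5 peak lay at that start (DBH, CHAT), next to it (SLC18A3) or near it (the downstream start of DDC), or because none lay in the locus (SLC18A2). Capitals mark TGACG or its reverse complement CGTCA, the core of the cAMP response element, a site known for the activation of catecholamine and granule genes.
DBH, chr9:133636113-133636362, plus strand: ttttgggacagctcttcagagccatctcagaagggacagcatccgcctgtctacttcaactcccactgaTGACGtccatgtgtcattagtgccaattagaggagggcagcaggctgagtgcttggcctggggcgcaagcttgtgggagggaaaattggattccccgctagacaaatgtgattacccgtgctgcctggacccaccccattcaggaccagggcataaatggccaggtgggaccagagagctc
DDC downstream start, chr7:50561072-50561321, minus strand: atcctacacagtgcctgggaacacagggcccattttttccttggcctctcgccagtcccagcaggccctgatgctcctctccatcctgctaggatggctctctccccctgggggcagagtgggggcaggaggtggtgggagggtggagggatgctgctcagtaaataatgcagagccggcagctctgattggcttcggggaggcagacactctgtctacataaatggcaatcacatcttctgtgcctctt
SLC18A2, chr10:117240864-117241113, plus strand: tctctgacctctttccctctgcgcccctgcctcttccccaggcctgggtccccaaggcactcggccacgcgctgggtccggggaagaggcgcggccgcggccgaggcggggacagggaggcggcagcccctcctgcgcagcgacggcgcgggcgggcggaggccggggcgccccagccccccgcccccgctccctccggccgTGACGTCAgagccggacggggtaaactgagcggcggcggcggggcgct
CHAT upstream start, chr10:49608845-49609094, plus strand: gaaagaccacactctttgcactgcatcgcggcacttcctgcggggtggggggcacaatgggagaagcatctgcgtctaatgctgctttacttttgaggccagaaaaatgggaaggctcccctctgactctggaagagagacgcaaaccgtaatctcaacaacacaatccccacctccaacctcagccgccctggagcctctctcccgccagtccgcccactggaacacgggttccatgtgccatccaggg
SLC18A3, chr10:49610060-49610309, plus strand: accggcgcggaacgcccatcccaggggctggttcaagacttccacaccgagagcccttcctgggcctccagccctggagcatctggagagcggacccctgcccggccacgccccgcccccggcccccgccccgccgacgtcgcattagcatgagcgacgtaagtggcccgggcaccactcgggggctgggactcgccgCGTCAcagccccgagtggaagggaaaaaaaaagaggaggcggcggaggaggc

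TGACG was searched on both strands and was found in 21.2% of the 35116 RefSeq promoters and in those of DBH, SLC18A2, SLC18A3 and CHGA. In SLC18A2 it lay 48 bases before the start, and in CHGA 54, both as the full palindrome TGACGTCA, which counts on both strands. In DBH it lay 181 bases before the start and in SLC18A3 52. None of the 3 CHAT and 2 DDC entries held it. The 4 genes with the motif included DBH, with a CHD5 peak at its start, CHGA, with the nearest peak 1.26 kb away, and SLC18A2, with none in the window. The GC box GGGCGG, on either strand, was in 42.6% of all promoters and in 5 of the 9 entries of the members. These were of SLC18A2, SLC18A3, CHGA and CHAT, whose farthest downstream entry held none. TATAAA was in 10.7% and in no member's entry. AGGTCA, a half-site of nuclear receptors, was in 12.1% and in the upstream entry of DDC and that of SLC18A2. CAGCACC, a part of the REST site, was in 6.16% and in 1 entry of CHAT. In CpG dinucleotides the promoters ranged widely, where the median RefSeq promoter had 11. There were 33 in SLC18A2, 25 in SLC18A3, 21 in CHGA and 5 in DBH. The CHAT entries had 10, 9 and 2, from the upstream one on, and the DDC entries 2 and 3. SLC18A2, with more CpG than 91.9% of promoters, was the locus without CHD5. SLC18A3 and CHGA, also above the median promoter in CpG, were in loci with CHD5 peaks. A relation of CpG to CHD5 was not tested. These matches describe letters in a window and not binding.

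TH, on chromosome 11 from 2185000 to 2193000 of hg19 and read from high to low positions, had no CHD5 peak within the gene. Its 4 peaks all lay in the flanks, 3 of them upstream. The outermost, from 2210898 to 2217008, began 17.9 kb upstream, was 6111 bp wide and scored 1123, the widest and highest of the 27. It ranked 188 of 32543 CHD5 peaks, above 99.4% of the list. The next, from 2205896 to 2207920, lay 12.9 kb upstream and scored 346, and the one from 2197291 to 2198042 lay 4.29 kb upstream and scored 72.9. In RefSeq order the next protein-coding gene upstream of TH is ASCL2, a basic helix-loop-helix factor, and the next downstream is INS, the insulin gene, beside the imprinted IGF2. Which gene these peaks belong to cannot be told from position.

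Past the end of TH, CHD5 and H3K27me3 came close together. The CHD5 peak from 2172031 to 2173592 lay 11.4 kb beyond the gene and scored 175. The nearest H3K27me3 region began 4.97 kb further on. The 3 H3K27me3 regions in the window ran from 2164758 to 2165435, 2165487 to 2165833 and 2165954 to 2167065, and began 17.9 to 19.6 kb past the end of TH. They scored 321, 174 and 616, which placed them above 92.5%, 81.0% and 97.5% of the H3K27me3 list. Joined with neighbours up to 3 kb apart, they formed part of a domain of 9 regions and 8.25 kb, from 2158819 to 2167065. That is wider than 83.6% of the 38537 domains of the list. Since the domain reaches past the window, the 20 kb limit divides it: the region just outside, from 2164166 to 2164561, lay 20.4 kb from TH and scored 214. No CHD5 peak overlapped this domain. It is on the INS side of TH, and the gene itself had no H3K27me3 region.

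DDC, on chromosome 7 from 50526000 to 50634000 and read from high to low positions, carried 6 CHD5 peaks, all within the gene and none in its flanks. The peak closest to the start, from 50627367 to 50629603, lay 4.40 to 6.63 kb into the gene and scored 212. RefSeq places the downstream start of DDC, whose promoter is printed above, 4.33 kb from the upstream start. DDC is known to be read from alternative first exons in neurons and in other tissues. With the span rounded and the builds different, whether this peak covers the downstream start was not determined. Further in, peaks lay at 32.9 to 35.6 kb with a score of 103, at 56.3 to 59.0 kb with 207, at 60.3 to 61.8 kb with 87.7, at 67.0 to 70.2 kb with 289, and at 97.8 to 99.5 kb with 125. The middle 3 were close together, and the 1 from 50563798 to 50566961 was the highest and widest, at 3164 bp. The others ran from 50534458 to 50536223, 50572181 to 50573689, 50575025 to 50577709 and 50598388 to 50601122.

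The surroundings of DDC were poor in CHD5 and rich in H3K27me3. Within 1 Mb on either side of the gene there were 12 CHD5 peaks, of which DDC held 6. The next peak past the end of the gene, toward FIGNL1, was 110 kb away, and the next past the start, toward GRB10, was 749.5 kb away. The same 1-Mb flanks held 787 H3K27me3 regions over 334 kb, the most of the 8 loci, and the nearest to DDC was a single region of 178 bp at 50.7 kb, with a score of 52.9. CHD5 peaks are wider on chromosome 7, with a median of 2536 bp, and 3 of the 6 DDC peaks were at or above it. Whether this has a part in the count at DDC was not tested.

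DBH, on chromosome 9 from 136501000 to 136525000, had a CHD5 peak over its start. This peak, from 136500209 to 136502245, was 2037 bp wide and scored 220, above 75.5% of the list. A second peak from 136491708 to 136492843 lay 8.16 kb upstream and scored 109. None was found further inside the gene or in its downstream flank. The next peak beyond the window, from 136547157 to 136549841, was 22.2 kb past the end, on the side of SARDH, and scored 394. It is the CHD5 peak nearest to the window among those outside it, over all 8 loci, while the peak of TH at 17.9 kb was the farthest inside. The nearest H3K27me3 region, of 189 bp, was 85.3 kb past the gene.

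Of the transporter genes, SLC18A2 had no CHD5 peak and SLC6A2 had 6. SLC18A2, on chromosome 10 from 119000000 to 119038000, had 0 CHD5 peaks and 0 H3K27me3 regions in its 78 kb window. Windows of that width held no CHD5 peak in 58.8% of cases over the genome and in 50.1% on chromosome 10, and held neither list in 33.7%, so an empty window is common. The nearest CHD5 peak, from 118934200 to 118935756, was 64.2 kb upstream and scored 144. The nearest H3K27me3 region ended 67.0 kb upstream. It closed a domain of 20.9 kb with 21 regions, from 118912168 to 118933024, whose highest score was 2245. On the downstream side, toward PDZD8, the nearest CHD5 peak was 224 kb and the nearest H3K27me3 region 252 kb away.

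SLC6A2, on chromosome 16 from 55689000 to 55740000, had 6 CHD5 peaks, all between -14.6 and 8.29 kb from the start. The peak over the start, from 55688243 to 55689957, scored 179, and the one from 55689968 to 55691280, which follows after a gap of 10 bp, scored 99.7. Upstream, the peak from 55685718 to 55687519 scored 361 and that from 55674366 to 55676053 scored 404, which is above 90.8% of the list. Inside the gene, peaks from 55694072 to 55694844 and from 55695126 to 55697289 scored 54.2 and 253. The first of these had the lowest score at any locus. The rest of the gene and its downstream flank held none, and the next peak past the end was 238 kb away. The upstream neighbour in RefSeq order is LPCAT2, and a peak with a score of 584 lay 92.3 kb upstream, beyond the window. H3K27me3 was remote, with the nearest region 329.8 kb upstream.

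The chromogranin genes had 4 peaks between them. CHGA, on chromosome 14 from 93389000 to 93402000, had 3. The highest, from 93382784 to 93384590, lay 4.41 kb upstream and scored 248, and that from 93386123 to 93386986 lay 2.01 kb upstream and scored 58.0. The third, from 93390261 to 93391506, lay 1.26 kb inside the rounded span and scored 77.7, below the median of the list. The nearest H3K27me3 region was a single one of 161 bp, 64.2 kb upstream, although 585 regions lay within 1 Mb. CHGB, on chromosome 20 from 5892000 to 5906000, had 1 peak, from 5891161 to 5892619, which covered the start and scored 131. No other CHD5 peak lay within 45.0 kb upstream or 302 kb downstream of the gene. The nearest H3K27me3 region was 125 kb downstream.

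The cholinergic locus, on chromosome 10 from 50817000 to 50902000, had 5 CHD5 peaks of mostly low score. The peak over the CHAT start, from 50816811 to 50818074, scored 89.4. It reached 1.07 kb into the gene, where RefSeq places the SLC18A3 start 1.22 kb after the first CHAT start. The peak from 50813423 to 50814364 lay 2.64 kb upstream and scored 56.7. The highest, from 50841005 to 50842996, lay 24.0 kb inside and scored 274, above 82.3% of the list. Peaks from 50871539 to 50872447 and from 50898396 to 50899762 scored 64.1 and 83.5. The last began 81.4 kb from the start. RefSeq's current CHAT gene is 58.8 kb long against 85 kb for the span used, and the next gene is C10orf53, so this peak may lie outside CHAT. No H3K27me3 region was within 174.5 kb of the span, and 9 regions lay within 1 Mb, the fewest of the 8 loci.

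Set beside the 7 noradrenergic and granule loci, the cholinergic locus had peaks at a similar density, with a lower median score than those loci pooled. It held 4.00 CHD5 peaks per 100 kb against 4.10 in the other 7 together. The median score was 83.5 against 177, and 1 of 5 peaks against 14 of 22 reached the median of the list. A low median was not particular to it, since CHGA, one of the 7, had a median of 77.7 with 1 of 3 peaks reaching that of the list. The ranges overlap widely, from 56.7 to 274 against 54.2 to 1123. With 1 cholinergic locus and 1 library, this difference could not be tested.

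No overlap with H3K27me3 was found for any of the 27 CHD5 peaks. Over the whole list 2.19% of CHD5 peaks did. If the peaks were independent, a count of 0 of 27 would allow a share of up to 11.1%, taken as 3 counts over 27. They come from 7 loci and are not independent, so this limit is too narrow. A lower share than in the list was not detectable with this number of peaks. Limits of this kind cover counting error only. One of the 27, the downstream peak at TH, came within 10 kb of H3K27me3, against 7.77% of all CHD5 peaks. The median distance to the nearest region was 119 kb, with a range of 4.97 to 336 kb, and over all CHD5 peaks it was 166 kb with quartiles of 61.2 and 348 kb. Peaks of 1 locus share their surroundings, so distances fell into groups by gene. They were 4.97 to 43.8 kb at TH, 58.0 to 65.5 kb at CHGA, 59.2 to 123 kb at DDC, 108 and 117 kb at DBH, 139 kb at CHGB, 177 to 232 kb at CHAT and 315 to 336 kb at SLC6A2. The groups of TH, CHGB, CHAT and SLC6A2 did not overlap any other.

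**Figure D4:**
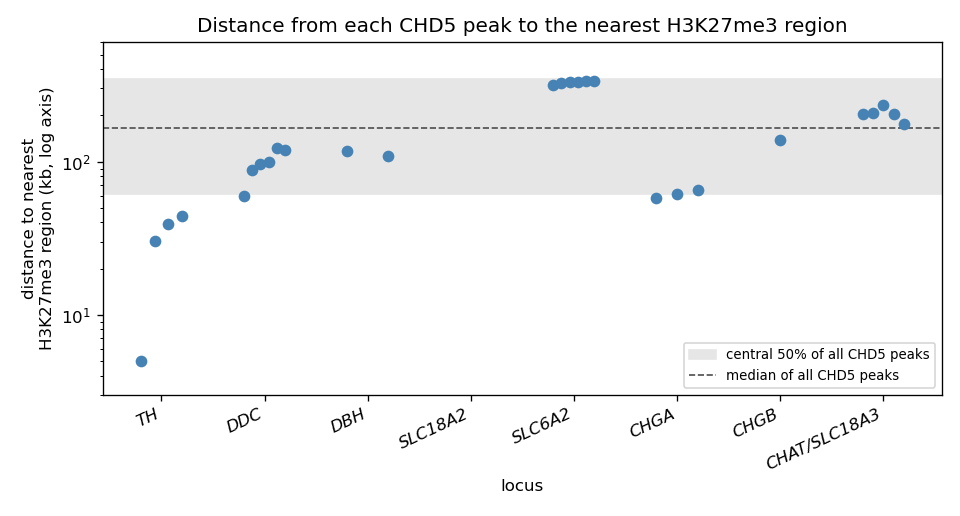
Distance in kb, on a log axis, from each CHD5 peak of the 7 loci with CHD5 to the nearest H3K27me3 region. The dashed line and grey band are the median and central 50% of all CHD5 peaks, and only TH has peaks below the band by a wide margin, from 4.97 to 43.8 kb.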

How the data were processed

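The deposited lists are MACS peak calls for FBio-CHD5 and H3K27me3, per the file headers, on build hg19 according to the submitters' processing notes. Each region carries the authors' score. Its scale, the threshold, the library used as background and the aligner are not stated in the sources at hand. Without a matched control, calling can also list sites that bind the beads, and narrow calling can divide a broad mark. Depth is unknown.

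Gene spans in kb and 20 kb flanks defined the loci. Regions were counted at 1 bp overlap and checked with bedtools 2.31.1. H3K27me3 regions up to 3 kb apart were joined. Equal windows laid end to end on each chromosome, up to the highest region end, gave the background. All CHD5 peaks of the loci are named, with the H3K27me3 domain and regions, because no locus had more than 6 peaks. Routines were tested on simulated data. Python 3.11.15, pandas 2.3.3, numpy 2.4.6, scipy 1.17.1 and matplotlib 3.10.9 were used. Members and lists were chosen with earlier results of these data known. Promoters and gene order came from RefSeq, GRCh38.p14. Strands of TH, SLC6A2 and CHGB are textbook orientations. Other pathway genes were not analysed here, for want of hg19 positions.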

Additional observations from a re-analysis of the deposited data

How the results depend on the processing

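Flanks of 0, 10 and 50 kb, a score limit at the median of each list, 3 other definitions of overlap, other joining gaps and other background windows were tried, and leaving out TH was chosen after seeing the data. Of 52 values, 33 moved by no more than 1.5 times, or stayed within the Wilson 95% interval for shares of windows, and 19 moved further. The number of overlapping peaks was 0 in every setting tried, and 6 or 7 loci held CHD5. For most settings that 0 was fixed in advance, since all 27 peaks lay at least 4.97 kb from H3K27me3. Only the flank of 50 kb, with 35 CHD5 peaks, added peaks that could have overlapped. The values of 0 overlap are counted among the 33, so they say little about stability. With no flank there were 17 CHD5 peaks at 6 loci, 0 H3K27me3 regions, domains or loci with H3K27me3, 0 loci with both and 2 with neither, since TH has no peak inside the gene. A flank of 10 kb also gave 0 H3K27me3 regions, loci, domains and loci with both, and a flank of 50 kb gave 10 regions in 2 domains. Without TH, H3K27me3 regions, loci and domains were 0. Scores at or above the list median left 15 CHD5 peaks, still at 7 loci. With windows limited to 1-Mb stretches that hold a region of either list, 33.7% held CHD5 alone, 8.07% both and 31.6% neither. No paired analysis was possible because each group has 1 library, and for the same reason no replicate could be left out. Small numbers limit these loci: 27 peaks from 1 library cannot show a share as low as that of the whole list.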
